A study of Oryza sativa Indica Group and Oryza sativa Japonica Group with 8 samples.

Results

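Kinesins are motor proteins that walk along microtubules. The genes described here are all those of the rice array whose symbol or synonym is KIN followed by a number and an optional letter, in an annotation that ties each probe set (the group of probes that reads 1 transcript) to a gene. The rule found 34 genes on 38 probe sets, of 17905 genes on 22436 probe sets that had a single gene. KIN17 was matched by its name alone: the KIN17 protein binds DNA and RNA through a zinc finger and is no kinesin, so it is given apart. The 33 kinesin genes lay on 37 probe sets and in 9 families, with 14 genes in KIN14, 7 in KIN7, 3 in KIN10, 2 each in KIN5, KIN12 and KIN13, and 1 each in KIN1, KIN4 and KIN8. A further 3 kinesin genes of the RefSeq gene table (KIN12F, KIN14D and KIN14P) had no probe set listed for them and were not analysed here.

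A kinesin has a motor domain that splits ATP and steps along the microtubule, and the rest of the protein sets its cargo, its partners and its direction. Most families move toward the growing plus end of the microtubule, whereas KIN14 is the family of minus-end motors and KIN13 members take microtubules apart in animal cells. Flowering plants lack cytoplasmic dynein and have many KIN14 genes. Dividing plant cells use kinesins to build the spindle and, after the chromosomes have parted, the phragmoplast, the microtubule array that lays down the new cell wall; in panicles, both mitosis and the male meiotic divisions take place in the florets.

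Young panicles, with male germ cells from microspore mother cells up to meiosis, were measured on 8 Affymetrix rice arrays, 1 for each of 4 lines at each of 2 temperatures. The lines called tms5 were AnS-1, an indica mutant with thermosensitive genic male sterility (TGMS), and Os02g12290iL1, a japonica line in which RNA interference (RNAi) knocks down Os02g12290; the wild types were AnN in indica and ZH11 in japonica. Plants stood in a growth cabinet at a day average of 28 °C (the restrictive temperature) or 23 °C (the permissive temperature), and the design asked whether the ribonuclease RNase ZS1 takes part in mRNA metabolism. Every group of a genotype and a temperature thus held 2 arrays, 1 indica and 1 japonica, and nothing in the labels says how many plants an array stands for, so p-values measure the spread between these arrays. Os02g12290iL1 is a single RNAi line, and the level of its target was not used here. Whole panicles hold many cell types, and fewer dividing cells cannot be told apart from less RNA per cell.

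The deposited intensities fell into 3 sets of arrays on different scales. Their medians were 139 in AnS-1 and 141 in AnN for the 2 indica arrays at 28 °C, 59.2 in AnS-1 and 61.3 in AnN for the 2 indica arrays at 23 °C, and 109 to 117 for the 4 japonica arrays. All arrays were therefore quantile normalized, after which the median probe set read 107 and the upper quartile 392 on each. In indica the temperatures coincide with array sets, so a temperature effect and an effect of the set cannot be told apart there. The japonica arrays do not have this limit. Each tms5 line is set against its wild type within an array set, so these differences do not have it either. Their tests do carry it, because the indica change between temperatures enters the spread that all of them use. No probe set of the meiocyte, tapetum, tubulin or green tissue lists read 0 on any array, and no listed probe set was found for late pollen genes.

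Most kinesin probe sets gave a signal above the median of the array. Of the 37 probe sets, 34 (91.9%) were among the upper 60% of probe sets by mean level, which were the ones tested, and these 34 stood for 32 of the 33 genes. The dim ones were KIN14B, which read 24.8 to 97.5, 1 of 3 probe sets of KIN14K, which read 6.79 to 21.8, and 1 of 2 probe sets of KIN8B, which read 2.50 to 16.8. Levels of different probe sets depend on their probes as well as on the transcript, so they are not ranked against each other here. Of the tested probe sets, 17 were highest in AnS-1 at 23 °C and 16 were lowest on an indica array at 28 °C. The spread over the 8 arrays, taken as highest over lowest of the intensity plus 16, was under 1.5-fold for 4 tested probe sets and over 3-fold for 11. The counts by array and by spread were not made over all tested probe sets, so they are not read as particular to kinesins.

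The probe set with the highest mean of each family is given in full, here for KIN4, KIN13, KIN7 and KIN8. KIN4A, also called GDD1 or BC12 and needed in rice for the orderly orientation of cellulose microfibrils and for stem growth, had 2876 in AnS-1 and 2879 in AnN at 28 °C, against 2471 in AnS-1 and 2507 in AnN at 23 °C. In japonica it had 1691 in Os02g12290iL1 and 1812 in ZH11 at 28 °C, against 1811 in Os02g12290iL1 and 1738 in ZH11 at 23 °C. Its whole range was 1.70-fold, and indica arrays were higher than japonica arrays at both temperatures. KIN13B, of the microtubule-shortening family, had 2663 in AnS-1 and 2468 in AnN at 28 °C, against 2094 in AnS-1 and 2292 in AnN at 23 °C. Its japonica values were 1952 in Os02g12290iL1 and 1909 in ZH11 at 28 °C, against 2049 in Os02g12290iL1 and 1874 in ZH11 at 23 °C, and its spread was 1.42-fold. The name of its sole probe set, Os.16303.3.S1_x_at, has a suffix of probes that may bind other transcripts. KIN13A (LOC4337845), known in rice as SRS3 from mutants with small round seeds, was read by 2 probe sets that ranged over 1.33-fold and 1.60-fold.

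KIN7D, known as K16 in rice, was the steadiest kinesin, with 2224 in AnS-1 and 2104 in AnN at 28 °C, against 2113 in AnS-1 and 1906 in AnN at 23 °C. It had 1961 in Os02g12290iL1 and 1912 in ZH11 at 28 °C, against 1989 in Os02g12290iL1 and 1932 in ZH11 at 23 °C in japonica. Its 8 values spanned 1.17-fold, the smallest range of any tested kinesin. KIN8B belongs to a family whose animal members shorten microtubules at their plus ends, and its brighter probe set read 967 in AnS-1 and 923 in AnN at 28 °C, against 1075 in AnS-1 and 1012 in AnN at 23 °C. On japonica arrays it had 613 in Os02g12290iL1 and 536 in ZH11 at 28 °C, against 594 in Os02g12290iL1 and 512 in ZH11 at 23 °C. Indica values lay above every japonica value for that probe set, whose name has the suffix of probes that may bind other transcripts; with the gene's other probe set dim on every array, its reading of KIN8B is uncertain.

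**Figure D1:**
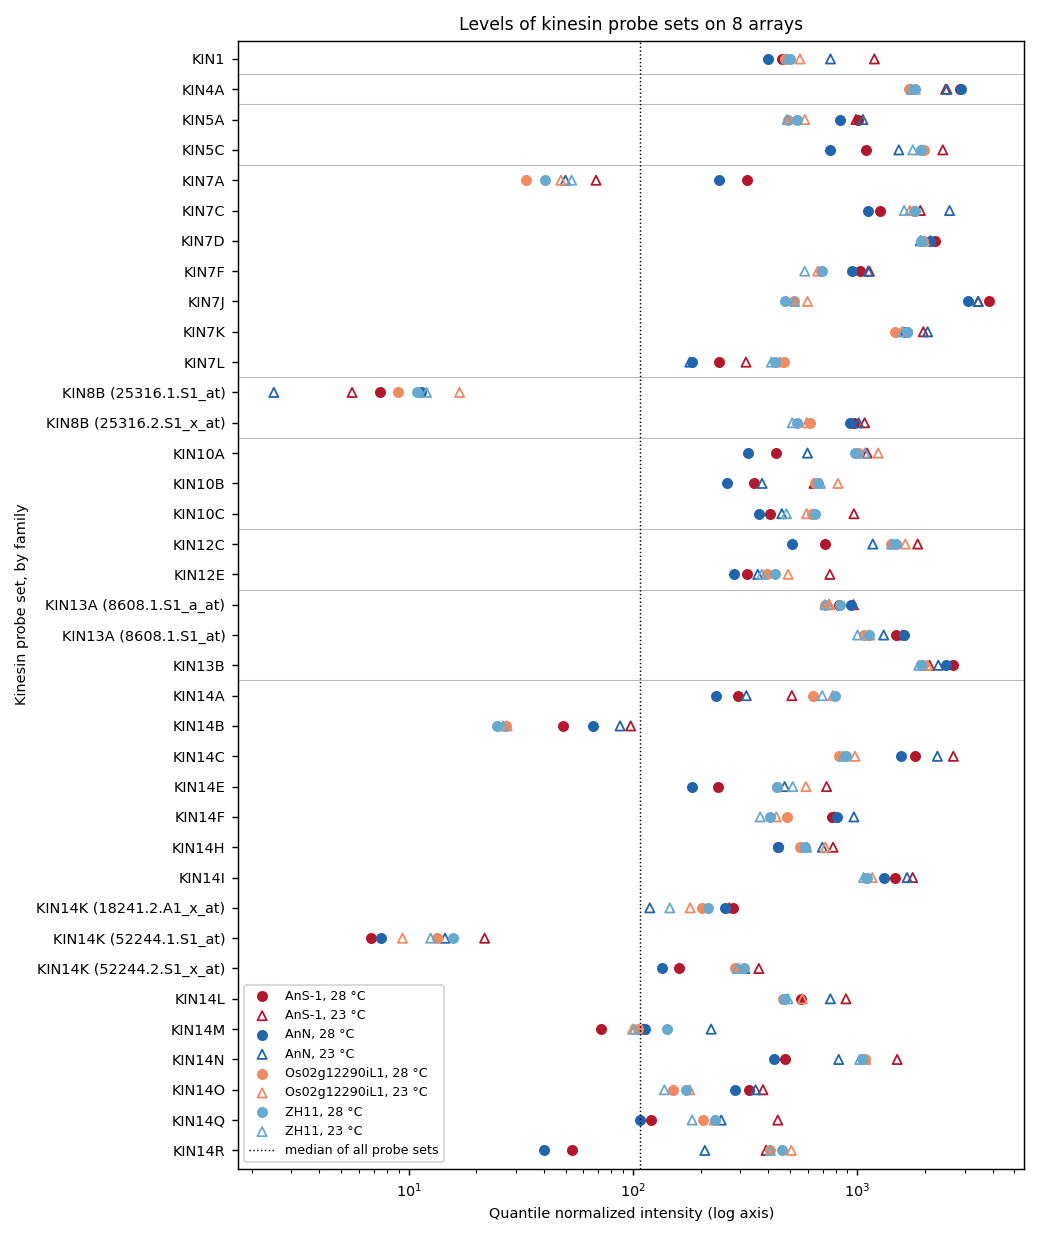
Quantile normalized intensity (log axis) of all 37 kinesin probe sets on each of the 8 arrays, grouped by family; filled circles are 28 °C and open triangles 23 °C, colours are lines, and the dotted line is the median of all probe sets (107). Most kinesins sit above the median, 3 dim probe sets, KIN7A outside indica at 28 °C and KIN14M on 4 arrays sit below it, and the indica 28 °C points of KIN14R lie far to the left of its other points.

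In indica panicles, kinesins of the KIN1, KIN5, KIN7, KIN10, KIN12 and KIN14 families fell at 28 °C against 23 °C, and 1, KIN7A, rose. Of 34 tested kinesin probe sets, 16 were lower and 1 was higher past an adjusted p of 0.05 (limma, Benjamini-Hochberg over 34316 probe sets), and 17 did not pass. Over all tested probe sets 46.0% were called, 26.2% lower and 19.8% higher. The kinesin median was a log2 difference of -0.57, beside -0.12 over all tested probe sets. Both lines were lower at 28 °C for 24 of the 34, at least 1.5-fold in both for 12, where 48.9% and 12.2% of all tested probe sets were so. Both lines were higher for 5, at least 1.5-fold for KIN7A alone, where 34.1% and 14.0% of all tested probe sets were so. KIN7A was tested through its indica 28 °C arrays, so neither its call nor its place in these counts is read against the shares.

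KIN14, the minus-end family, held 10 of the 16 that fell. KIN14R (LOC4352796) had 53.2 in AnS-1 and 39.98 in AnN at 28 °C, against 391 in AnS-1 and 209 in AnN at 23 °C. The groups lay far apart and did not overlap, and this was a log2 difference of -2.28 (SE 0.19, adjusted p 0.00213). In japonica KIN14R read 406 in Os02g12290iL1 and 459 in ZH11 at 28 °C, against 507 in Os02g12290iL1 and 409 in ZH11 at 23 °C, where the temperatures overlapped. KIN14Q, known as KCH1, carries an actin-binding domain and can link actin filaments with microtubules. It had 121 in AnS-1 and 108 in AnN at 28 °C, against 441 in AnS-1 and 247 in AnN at 23 °C, without overlap, with a log2 difference of -1.42 (SE 0.21, adjusted p 0.00797). KIN14E had 239.7 in AnS-1 and 184 in AnN at 28 °C, against 728 in AnS-1 and 474 in AnN at 23 °C. Both arrays at 28 °C were well below both at 23 °C, with a log2 difference of -1.42 (SE 0.12, adjusted p 0.00217). KIN14N had 478 in AnS-1 and 423 in AnN at 28 °C, against 1503 in AnS-1 and 824 in AnN at 23 °C, and this was a log2 difference of -1.28 (SE 0.19, adjusted p 0.00762).

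The other KIN14 calls were smaller. KIN14C had 1814 in AnS-1 and 1557 in AnN at 28 °C, against 2674 in AnS-1 and 2271 in AnN at 23 °C. All 4 values were above those of japonica, and the temperatures did not overlap within indica, with a log2 difference of -0.55 (SE 0.11, adjusted p 0.0196). KIN14L had 558 in AnS-1 and 471 in AnN at 28 °C, against 888 in AnS-1 and 757 in AnN at 23 °C, with a log2 difference of -0.66 (SE 0.11, adjusted p 0.0106). KIN14H had 441 in AnS-1 and 440.3 in AnN at 28 °C, against 778 in AnS-1 and 697 in AnN at 23 °C, and the pair of lines read almost alike at 28 °C, with a log2 difference of -0.72 (SE 0.13, adjusted p 0.0130). KIN14A had 293 in AnS-1 and 233 in AnN at 28 °C, against 509.7 in AnS-1 and 319.5 in AnN at 23 °C, with a log2 difference of -0.60 (SE 0.16, adjusted p 0.0402). KIN14M was dim, with 71.9 in AnS-1 and 113 in AnN at 28 °C, against 111 in AnS-1 and 223 in AnN at 23 °C; its groups overlapped, since AnN at 28 °C lay just above AnS-1 at 23 °C, and it had a log2 difference of -0.71 (SE 0.15, adjusted p 0.0208). Of the 16, the other 15 had groups without overlap. Among all 34 tested kinesin probe sets, called or not, 22 were lower without overlap, where 44.2% of all tested probe sets were so.

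KIN14K (LOC4339353) was read by probe sets that disagreed. Os.52244.2.S1_x_at had 161 in AnS-1 and 134 in AnN at 28 °C, against 363 in AnS-1 and 314 in AnN at 23 °C, and fell by 1.12 on the log2 scale (SE 0.10, adjusted p 0.00252). Os.18241.2.A1_x_at had 278 in AnS-1 and 256 in AnN at 28 °C, against 268 in AnS-1 and 119 in AnN at 23 °C, with a log2 difference of 0.53 that did not pass (adjusted p 0.149). The suffix of both names marks probes that may also bind other transcripts, so the direction for KIN14K is uncertain. The KIN14 members that did not pass were KIN14F at -0.14, KIN14I at -0.30 and KIN14O at -0.25 on the log2 scale. KIN14I, known as KCBP, is regulated by calmodulin.

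Among the mitotic plus-end motors, KIN5C and KIN12C fell. KIN5 proteins form bipolar tetramers that slide spindle microtubules apart. KIN5C had 1088 in AnS-1 and 758 in AnN at 28 °C, against 2400.5 in AnS-1 and 1528 in AnN at 23 °C. The 28 °C arrays were below the 23 °C arrays in both lines, with a log2 difference of -1.06 (SE 0.10, adjusted p 0.00285), whereas KIN5A had 1005 in AnS-1 and 837 in AnN at 28 °C, against 984 in AnS-1 and 1057 in AnN at 23 °C, which overlapped, and a log2 difference of -0.15 that did not pass. KIN12 proteins sit at the phragmoplast midline in Arabidopsis. KIN12C had 713 in AnS-1 and 512 in AnN at 28 °C, against 1855 in AnS-1 and 1169.8 in AnN at 23 °C, with a log2 difference of -1.26 (SE 0.12, adjusted p 0.00284). KIN12E had 322 in AnS-1 and 281 in AnN at 28 °C, against 753 in AnS-1 and 359 in AnN at 23 °C; AnS-1 differed more than AnN, and the log2 difference of -0.76 did not pass (adjusted p 0.0591).

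KIN1 and the KIN10 family showed the same direction. KIN1 (LOC4344521) is the gene of PSS1, whose rice mutant is pollen semi-sterile with disturbed male meiosis. KIN1 had 459 in AnS-1 and 399 in AnN at 28 °C, against 1189 in AnS-1 and 758 in AnN at 23 °C, without overlap, and a log2 difference of -1.12 (SE 0.15, adjusted p 0.00654). The name of its sole probe set, Os.18328.1.S1_s_at, has a suffix of probes that may bind other transcripts, so this may not be KIN1 alone. KIN10A is the gene of STD1, which acts at the phragmoplast in rice. KIN10A had 434 in AnS-1 and 326 in AnN at 28 °C, against 1104 in AnS-1 and 598 in AnN at 23 °C, with a log2 difference of -1.08 (SE 0.15, adjusted p 0.00676). KIN10B had 344 in AnS-1 and 263 in AnN at 28 °C, against 640.1 in AnS-1 and 376 in AnN at 23 °C, and this was a log2 difference of -0.68 (SE 0.15, adjusted p 0.0211). KIN10C had 408 in AnS-1 and 364 in AnN at 28 °C, against 964 in AnS-1 and 459.9 in AnN at 23 °C, and its log2 difference of -0.77 missed the threshold (adjusted p 0.0542).

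KIN7 was the family with calls in both directions. KIN7A (LOC4323990), also called DBS1, is of the NACK type, which in tobacco recruits a kinase cascade that expands the phragmoplast. KIN7A had 323 in AnS-1 and 240.2 in AnN at 28 °C, against 68.3 in AnS-1 and 49.9 in AnN at 23 °C. It was thus several times higher in both lines at 28 °C, with a log2 difference of 1.98 (SE 0.10, adjusted p 0.000933), against the direction of the other called kinesins. On the japonica arrays it read 33.2 in Os02g12290iL1 and 40.4 in ZH11 at 28 °C, against 47.6 in Os02g12290iL1 and 53.2 in ZH11 at 23 °C. KIN7A was tested because of its indica 28 °C arrays: without either of them it fell under the upper 60%, so its call cannot be set against a share of members that passed. KIN7C had 1253 in AnS-1 and 1119 in AnN at 28 °C, against 1906 in AnS-1 and 2573 in AnN at 23 °C and fell, with a log2 difference of -0.89 (SE 0.17, adjusted p 0.0150). The 5 KIN7 members that did not pass (KIN7D, KIN7F, KIN7J, KIN7K and KIN7L) had log2 differences between -0.28 and 0.11.

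KIN4A, KIN8B, KIN13A and KIN13B also did not pass in indica, with log2 differences of 0.21, -0.14, 0.05 and 0.10 for the pair of KIN13A probe sets, and 0.23. The calls lay on 10 of 14 tested KIN14 probe sets and on none of KIN4, KIN8 and KIN13. KIN17 had 858 in AnS-1 and 810.5 in AnN at 28 °C, against 1135 in AnS-1 and 1005 in AnN at 23 °C, a log2 difference of -0.35 that passed (adjusted p 0.0444).

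Several weaker calls were lost when 1 array was left out, some with the log2 difference hardly moved. Without AnS-1 at 23 °C the log2 difference was -0.49 for KIN10B (adjusted p 0.0840), -0.43 for KIN14A (adjusted p 0.168) and -0.54 for KIN14C (adjusted p 0.0631), and without AnS-1 at 28 °C it was -0.49, -0.43 and -0.54. Without AnN at 23 °C it was -0.55 for KIN14C (adjusted p 0.0580) and -0.53 for KIN14M (adjusted p 0.0809), and without AnN at 28 °C it was -0.56 and -0.53. Leaving out any japonica array also ended the calls of KIN10B and KIN14A, at -0.68 and -0.60, and leaving out ZH11 at 23 °C or either Os02g12290iL1 array that of KIN7C, at -0.90 or -0.89. The direction of a kinesin in indica is relative to the scaling: on the deposited scales all tested probe sets shifted by 0.85 on the log2 scale, and the kinesin median was 0.36. The kinesin median was -0.33 without AnS-1 at 23 °C and -0.34 without AnS-1 at 28 °C. Relative to the median of all tested probe sets, 23 of 34 kinesins were below it in both lines whether values were quantile normalized or median centred, where 40.9% and 40.6% of all tested probe sets were so.

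**Figure D2:**
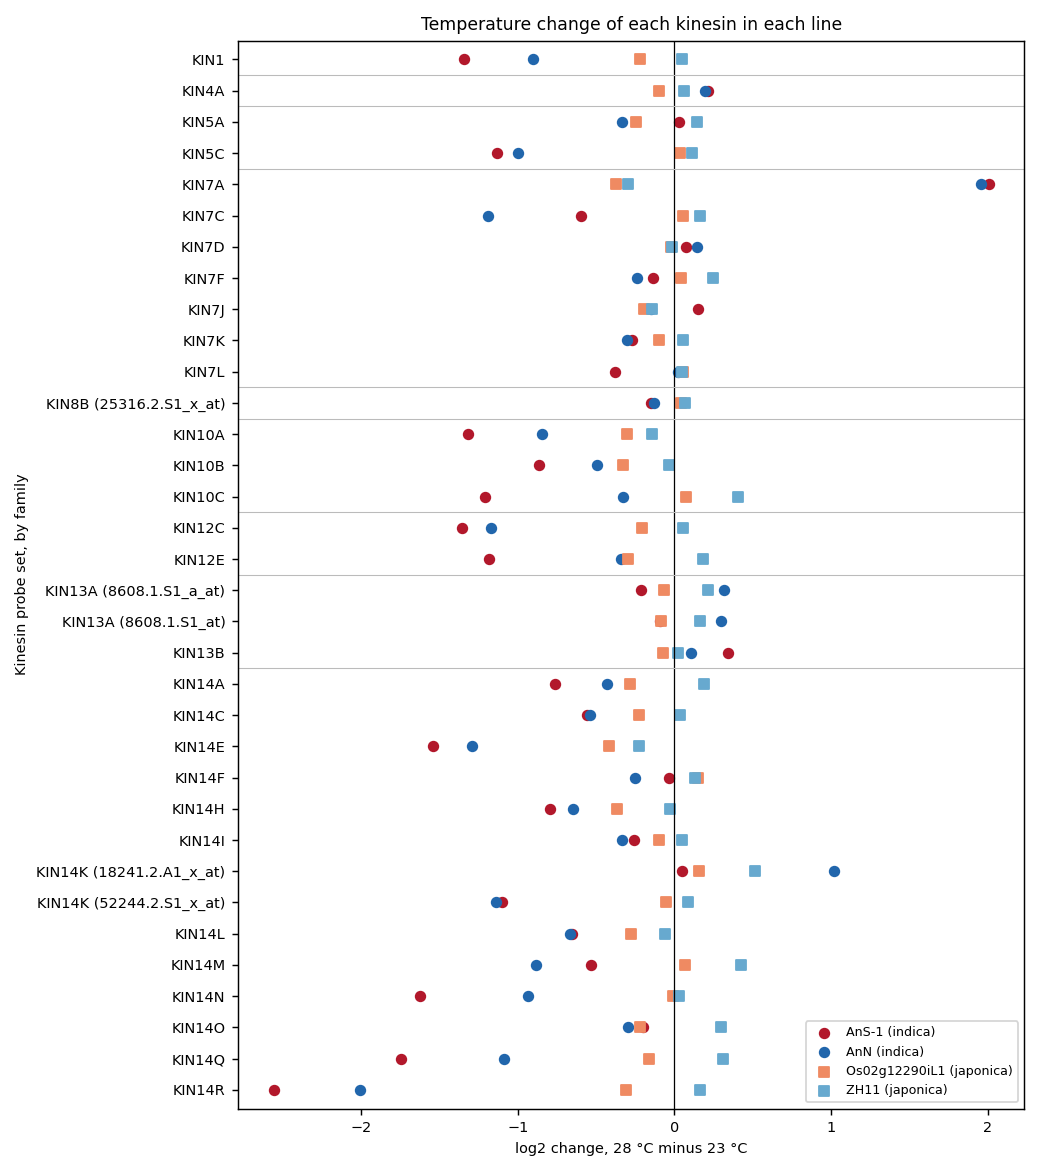
Log2 change at 28 °C against 23 °C of each of the 34 tested kinesin probe sets in AnS-1 and AnN (indica, circles) and in Os02g12290iL1 and ZH11 (japonica, squares). The indica circles spread to -2.56 for KIN14R in AnS-1 and to 2.01 for KIN7A in AnS-1, whereas all japonica squares lie between -0.42 and 0.52.

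In japonica panicles no kinesin changed past the threshold between 28 °C and 23 °C. No probe set at all was called by limma there (0 of 34316, 0.0%), with 2631 at an unadjusted p under 0.05, 2 of them kinesins. The kinesin median was -0.02 on the log2 scale, beside -0.0067 over all tested probe sets, and it was -0.10 without ZH11 at 28 °C or at 23 °C and 0.06 without Os02g12290iL1 at 28 °C or at 23 °C. Both lines were higher for 9 kinesins and lower for 8, and 17 went opposite ways, where 28.6%, 30.2% and 41.0% of all tested probe sets did so. Os02g12290iL1 was lower at 28 °C for 25 of 34 kinesins (51.2% of all tested) and ZH11 for 8 of 34 (50.3% of all tested). The kinesins at an unadjusted p under 0.05 were KIN7A at -0.33 (adjusted p 0.556) and KIN14E at -0.32 (adjusted p 0.650). KIN7A thus had a lower value at 28 °C in japonica, with no call, and a higher one in indica.

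The temperature change differed between the backgrounds for 12 kinesin probe sets, 11 with a lower and 1 with a higher value in indica than in japonica, beside 10.7% and 12.0% of all tested probe sets (22.7% in all). KIN14R differed by -2.21 on the log2 scale (SE 0.27) (adjusted p 0.0104). Its indica pair fell and its japonica pair overlapped, as given above. KIN7A differed by 2.32 on the log2 scale (SE 0.14) (adjusted p 0.00402), with both indica lines higher and both japonica lines lower; as it was tested through its indica 28 °C arrays, its call is not read against the share over all probe sets. The other 10 were KIN14Q, KIN14N, KIN12C, KIN5C, KIN14K (Os.52244.2.S1_x_at), KIN14E, KIN1, KIN7C, KIN14M and KIN10A, between -1.49 and -0.86. All 12 calls were lost, with 0 probe sets called in all, when any one of the 4 japonica arrays (Os02g12290iL1 or ZH11, at 28 °C or 23 °C) was left out. KIN1 and KIN10A were also lost without either AnS-1 array, and KIN7C and KIN14M without either AnN array. Because indica temperature coincides with array set, this difference cannot be told apart from an effect of the sets.

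At 28 °C no kinesin passed the test of the tms5 lines against their wild types. Neither was any other probe set called (0 of 34316, 0.0%), with 405 at an unadjusted p under 0.05 and no kinesin among them. The spread in this fit holds the indica change between temperatures, so the lack of calls does not show equal levels. With array sets as the block 3 probe sets were called, and 135 in a fit of the 4 arrays at 28 °C, none of them a kinesin. The kinesin median was 0.06 on the log2 scale, beside 0.02 over all tested probe sets, and it was 0.18 in indica and -0.07 in japonica. AnS-1 was above AnN for 28 of 34 kinesins (59.5% of all tested), whereas Os02g12290iL1 was above ZH11 for 9 of 34 (51.7% of all tested). Both tms5 lines were higher for 8 kinesins (31.7% of all tested) and lower for 5 (20.4%), and 21 went opposite ways (47.8%). None was 1.5-fold or more higher in both (0.0408% of all tested) or lower in both (0.988%). The median without AnN at 28 °C was -0.21, without ZH11 0.27, without AnS-1 0.18 and without Os02g12290iL1 0.0018, so its sign rests on single arrays.

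KIN14M had the most negative tms5 difference of the tested kinesins at 28 °C, with 71.9 in AnS-1 against 113 in AnN and 105 in Os02g12290iL1 against 142 in ZH11. The log2 difference was -0.47 (SE 0.38), and both lines had less than their wild type. KIN13A, the SRS3 gene, had 826 in AnS-1 against 934 in AnN and 716 in Os02g12290iL1 against 835 in ZH11 on its first probe set, a log2 difference of -0.20. KIN7K, KIN4A and the other KIN13A probe set were also lower in both, at -0.10, -0.05 and -0.10. In the other direction KIN7J had 3842 in AnS-1 against 3096 in AnN and 522 in Os02g12290iL1 against 474 in ZH11, a log2 difference of 0.22. KIN7L had 241 in AnS-1 against 182 in AnN and 469 in Os02g12290iL1 against 428 in ZH11, with 0.25. KIN8B, KIN5C and KIN14N followed, at 0.13, 0.28 and 0.11, and none of these passed the test.

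At 23 °C most kinesins read higher in the tms5 lines, by amounts that no test passed. Both tms5 lines were higher for 26 of 34 kinesins, where 35.2% of all tested probe sets were, lower for 2 (26.6%) and opposite for 6 (38.1%). The kinesin median was 0.21 on the log2 scale, beside 0.02 over all tested probe sets, and it was 0.25 in indica and 0.19 in japonica. AnS-1 was above AnN for 27 of 34 (52.4% of all tested), and Os02g12290iL1 above ZH11 for 31 of 34 (56.1% of all tested). In AnS-1 14 kinesins were at least 1.5-fold higher and 1 was lower, and the shares of all tested probe sets for that line alone were not counted. In Os02g12290iL1 none was either, so none was 1.5-fold higher in both (0.0903% of all tested), and none lower in both (0.973%). No probe set was called by limma (0 of 34316, 0.0%), with 738 at an unadjusted p under 0.05 and 1 of them a kinesin. The spread in this fit too holds the indica change between temperatures. The median was 0.05 without AnS-1, 0.34 without AnN, 0.36 without Os02g12290iL1 and 0.13 without ZH11 at 23 °C.

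Members of KIN12, KIN10 and KIN14 headed this direction. KIN12E had 753 in AnS-1 against 359 in AnN and 491 in Os02g12290iL1 against 375 in ZH11. It was higher in both tms5 lines, by 0.70 on the log2 scale (SE 0.30, adjusted p 1.00). KIN10C had 964 in AnS-1 against 459.9 in AnN and 593 in Os02g12290iL1 against 482 in ZH11, a log2 difference of 0.67. KIN14K had 268 in AnS-1 against 119 in AnN and 179 in Os02g12290iL1 against 146 in ZH11 on Os.18241.2.A1_x_at, a difference of 0.68 with an unadjusted p of 0.0331. That of its other tested probe set was 0.11. KIN14R had 391 in AnS-1 against 209 in AnN and 507 in Os02g12290iL1 against 409 in ZH11, a log2 difference of 0.58. KIN14Q had 441 in AnS-1 against 247 in AnN and 229.7 in Os02g12290iL1 against 183 in ZH11, a log2 difference of 0.55. The exceptions with lower values in both tms5 lines were KIN14M, with 111 in AnS-1 against 223 in AnN and 99.3 in Os02g12290iL1 against 101 in ZH11, and KIN7K, with a log2 difference of -0.04. KIN14M and KIN7K so read lower in each tms5 line than in its wild type at both temperatures, 4 of 4 pairs each. Neither passed a test, and the KIN14M values of Os02g12290iL1 and ZH11 given here were nearly tied, at -0.025 on the log2 scale. The share of all tested probe sets lower in 4 of 4 pairs was not counted.

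The tms5 difference at 28 °C minus that at 23 °C had a kinesin median of -0.17 on the log2 scale, and it was lower in both backgrounds for 19 of 34 kinesins (31.0% of all tested) and higher for 1 (29.2%). No probe set passed (0 of 34316, 0.0%), with 183 at an unadjusted p under 0.05 and no kinesin. The most negative values were -0.66 for KIN12E, -0.66 for KIN14K on Os.18241.2.A1_x_at, -0.61 for KIN10C and -0.56 for KIN14Q. The same 8 arrays enter this value and the temperature changes. Leaving out 1 array moved its median between -0.43, without AnN at 28 °C, and 0.08, without ZH11 at 28 °C. The broken pair was again filled in from the other arrays.

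**Figure D3:**
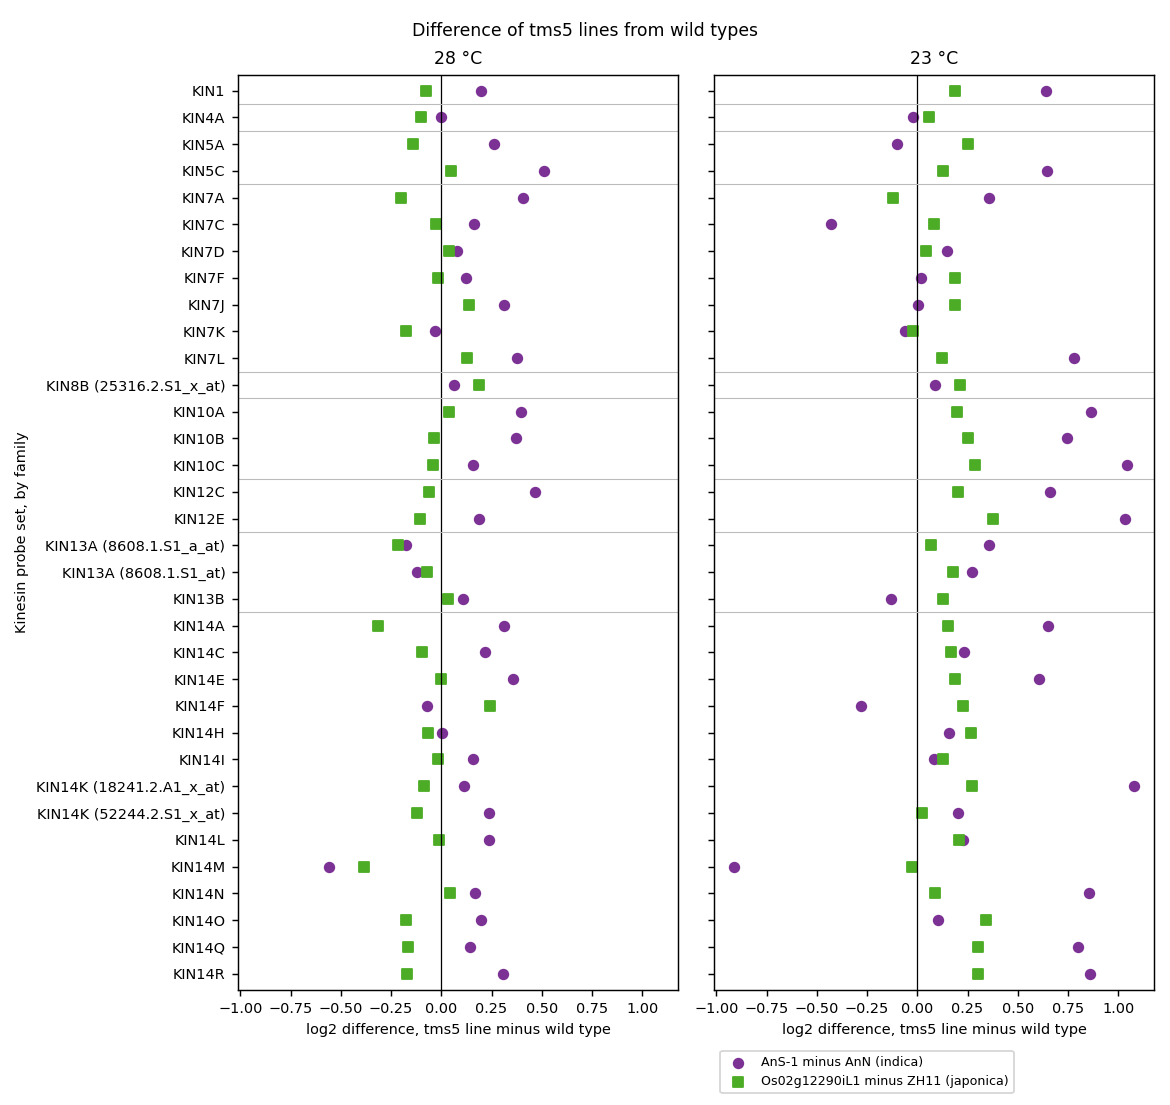
Log2 difference of each tms5 line from the wild type of its background for the 34 tested kinesin probe sets, at 28 °C (left) and 23 °C (right); circles are AnS-1 minus AnN and squares Os02g12290iL1 minus ZH11. At 28 °C circles lie mostly right of 0 and squares mostly left of it, and at 23 °C both lie mostly right of it.

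Levels in the backgrounds were set side by side without a test, because differences in the genome sequence under the probes cannot be told apart from differences in transcript level. All 4 indica arrays were above all 4 japonica arrays for 11 of 34 kinesins, where 20.1% of all tested probe sets were, and below them for 4, where 17.3% were; 19 overlapped. KIN7J stood out. It read 3842 in AnS-1 and 3096 in AnN at 28 °C and 3454 in AnS-1 and 3442 in AnN at 23 °C, against 522 in Os02g12290iL1 and 474 in ZH11 at 28 °C and 599 in Os02g12290iL1 and 525 in ZH11 at 23 °C. On intensities plus 16, AnN over ZH11 was 6.35-fold at 28 °C and 6.40-fold at 23 °C. The others higher in indica were KIN4A, KIN5A, KIN7F, KIN8B, KIN13A (Os.8608.1.S1_at), KIN13B, KIN14C, KIN14F, KIN14I and KIN14O. KIN5A, for example, had 1005 in AnS-1 and 837 in AnN at 28 °C and 984 in AnS-1 and 1057 in AnN at 23 °C, against 489 in Os02g12290iL1 and 540.1 in ZH11 at 28 °C and 582 in Os02g12290iL1 and 486 in ZH11 at 23 °C. Those lower in indica were KIN7L, KIN10B, KIN14A and KIN14R. KIN7L had 241 in AnS-1 and 182 in AnN at 28 °C and 318 in AnS-1 and 179 in AnN at 23 °C, against 469 in Os02g12290iL1 and 428 in ZH11 at 28 °C and 452 in Os02g12290iL1 and 413 in ZH11 at 23 °C. On the same scale AnN was 2.24-fold lower than ZH11 at 28 °C and 2.20-fold lower at 23 °C for KIN7L, and 8.49-fold lower at 28 °C and 1.89-fold lower at 23 °C for KIN14R.

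**Figure D4:**
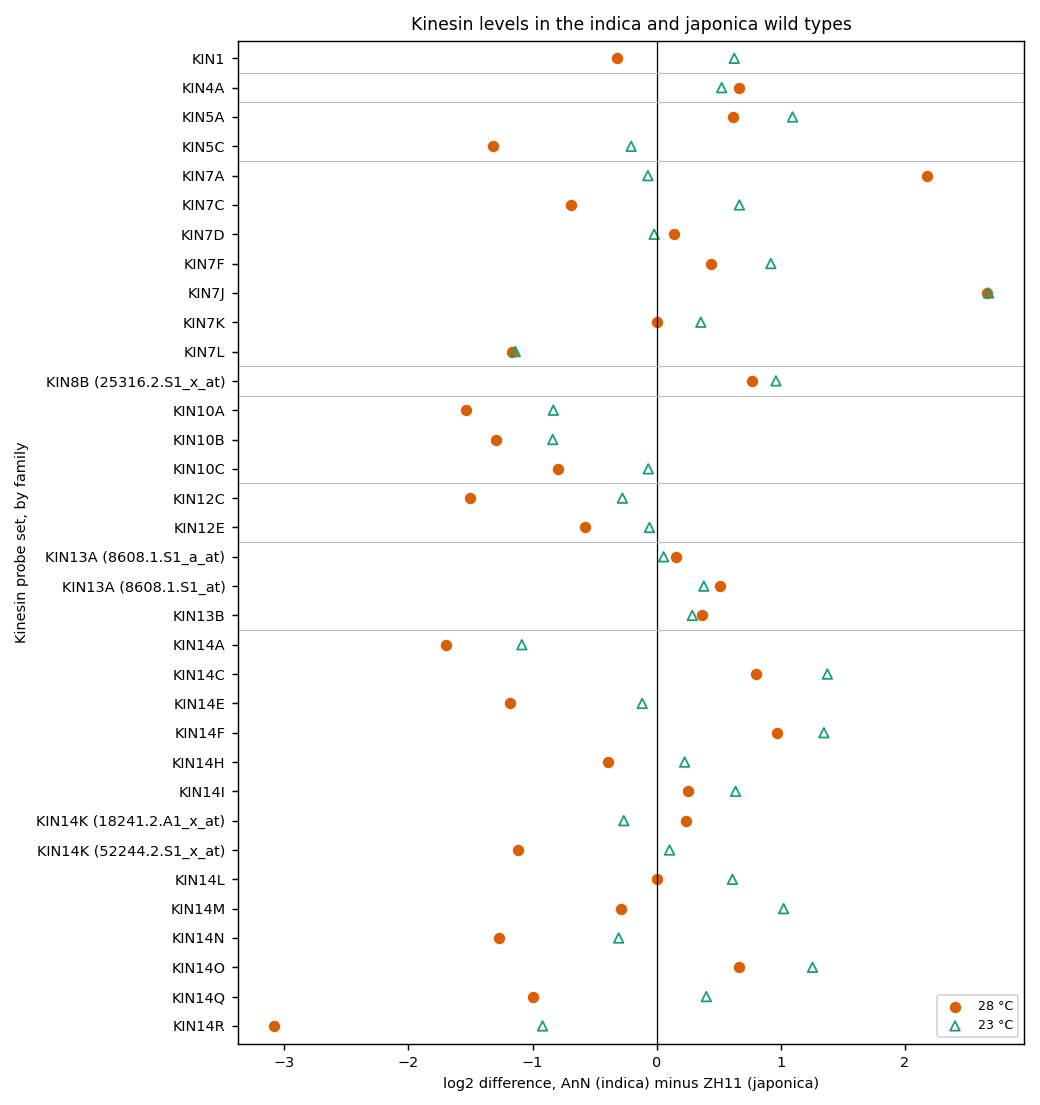
Log2 difference of AnN (indica) minus ZH11 (japonica) for the 34 tested kinesin probe sets at 28 °C (circles) and 23 °C (triangles). KIN7J lies near 2.67 at both temperatures and KIN7L near -1.16 and -1.14, whereas KIN7A and KIN14R move with temperature.

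Kinesins act with tubulins, and their genes are often transcribed with the cell cycle, so lists matched by symbol were counted beside them. In indica, 7 of 9 tested probe sets of A and B cyclins and CDKB kinases, which drive mitosis, were lower at 28 °C past the test and 1 was higher, with a median log2 difference of -1.17. Of 30 DNA replication probe sets 16 were lower and none higher, with a median of -0.69. Of 13 tubulin probe sets, 3 were lower and 2 higher, with a median of -0.24. CENH3, the histone of centromeres, was the sole spindle partner matched, and it had 574 in AnS-1 and 553 in AnN at 28 °C against 1482 in AnS-1 and 653 in AnN at 23 °C, which did not pass (adjusted p 0.0719); its log2 change was -1.34 in AnS-1 and -0.23 in AnN. The shares of all tested probe sets were 26.2% lower and 19.8% higher. At 23 °C, both tms5 lines were higher for 25 of 30 DNA replication and 6 of 9 cyclin and CDKB probe sets, with medians of 0.50 and 0.34 and no call. Tubulins were higher in both for 1 of 13 probe sets, with 11 opposite and a median of 0.00033. Of all tested probe sets 35.2% were higher in both.

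Marker lists of other cells were counted in indica too. The 16 meiosis probe sets, from genes that act in male meiocytes, summed to 4946 in AnS-1 and 4233 in AnN at 28 °C, against 8532 in AnS-1 and 6481 in AnN at 23 °C, and 8 of 15 tested were lower past the test. The 9 tapetum probe sets, from the nurse cell layer of the anther, summed to 7618 in AnS-1 and 18417 in AnN at 28 °C, against 6442 in AnS-1 and 8212 in AnN at 23 °C, and 3 were higher past the test. In japonica the meiosis sums were 9725 to 11325 and the tapetum sums 15129 to 28621 over the 4 arrays. The 6 green tissue probe sets, from RBCS and CAB2R, summed to 7322 in AnS-1 and 7007 in AnN at 28 °C, against 7706 in AnS-1 and 14540 in AnN at 23 °C, with 1 of 4 tested lower and 1 higher past the test and a median log2 difference of -0.71. Over all tested probe sets, 26.2% were lower and 19.8% higher. In japonica the green tissue sums were 3010 to 6654. The part of these lists in the kinesin values was not tested.

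**Figure D5:**
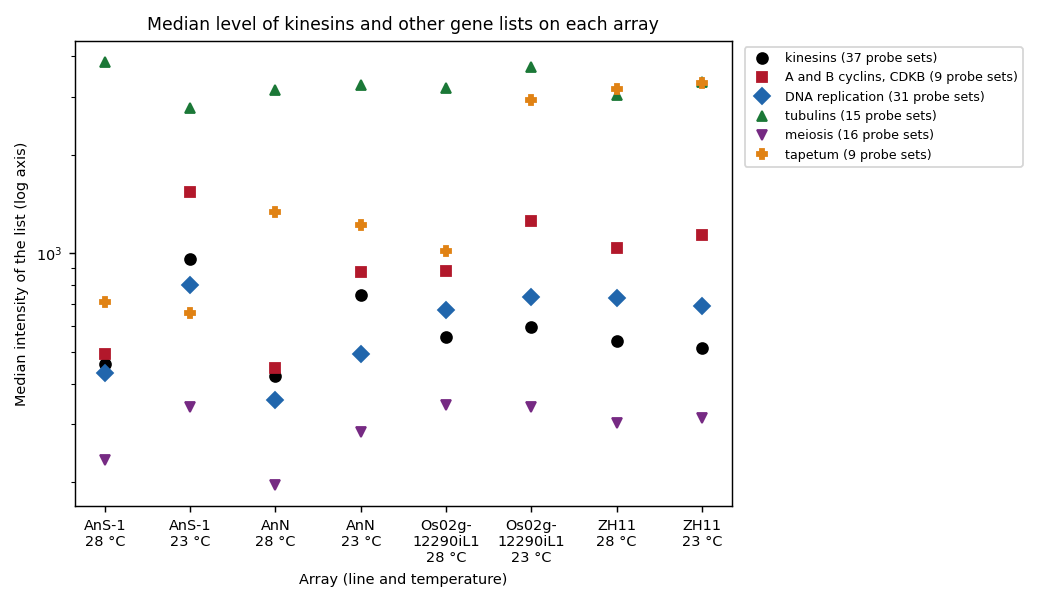
Median quantile normalized intensity (log axis) of the kinesins and of 5 other lists on each array. The kinesin, cyclin and CDKB, DNA replication and meiosis medians are lower at 28 °C than at 23 °C in both indica lines, and the kinesin median is highest in AnS-1 at 23 °C, at 959.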

How the data were processed

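The deposited intensities were on a linear scale. Per the submitters' processing notes they came from RMA in Affymetrix Expression Console, with no version stated. Since RMA output is normally in log2 units, the unit was settled from the values. RNA was labelled as biotinylated cRNA per the labels' protocols.

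Quantile normalization of the 8 arrays over 57258 probe sets was done before taking logs. After 64 control probe sets had been left out, log2(intensity + 16) was analysed, and this offset shrinks the changes of dim signals. Tests covered the 34316 probe sets in the upper 60% by mean level, with limma 3.58.1 in R 4.3.3, two-sided, with Benjamini-Hochberg adjustment over all of them and a threshold of 0.05. Comparisons of tms5 with wild type used group means with the background (indica or japonica) as a block (3 residual degrees of freedom, prior 2.16). In that fit a temperature change that differs between the backgrounds stays in the residual spread, which widens it. Temperature comparisons used a line term and temperature within background (2 residual degrees of freedom, prior 2.68). Both fits were tested on simulated data with known changes. The simulated arrays for the tms5 fit held no indica temperature or array-set difference, so they do not show how that fit behaves with it. Intensities give no count, so the number of arrays limits the precision.

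The probe table gave 1 gene for 22436 probe sets, several for 95 and none listed for 34727; genes were matched by Entrez ID to the RefSeq table of assembly ASM3414082v1, for names only, with 22436 of 22436 found, and no coordinates were used. The other lists were matched by symbol, and 5 probe sets of 3 unrelated genes that share a listed symbol were left out. Members named in full were the highest mean of each family, up to 5 per comparison and direction ranked by the smaller of the 2 changes, and every member that passed. The members and lists were chosen with earlier results of these data known. Sequences of promoters and proteins were not used here, so those planned descriptions were not made. Alternatives were another filter, normalization, pseudocount, block, empirical Bayes setting, set of arrays or probe set per gene, and leaving out each array.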

Additional observations from a re-analysis of the deposited data

Results flagged for a closer look

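The temperature change, at 28 °C against 23 °C, differed between indica and japonica past an adjusted p of 0.05 in limma for 12 kinesin probe sets, given here as indica minus japonica on the log2 scale. It was 2.32 for KIN7A, -2.21 for KIN14R, -1.49 for KIN14Q, -1.29 for KIN14N, -1.19 for KIN12C, -1.14 for KIN5C, -1.13 for KIN14K (Os.52244.2.S1_x_at), -1.10 for KIN14E, -1.04 for KIN1, -1.01 for KIN7C, -0.95 for KIN14M and -0.86 for KIN10A. Over all tested probe sets 22.7% were called. KIN7A was among those tested through its indica 28 °C arrays, so its call is not read against that share. None of the 12 calls was left without any one of the 4 japonica arrays, and the array sets cannot be told apart from temperature in indica. The tms5 difference of KIN13A was below 0 in both backgrounds at 28 °C and above 0 in both at 23 °C on each of its probe sets. Some of these differences were small, such as 0.065 in japonica at 23 °C on Os.8608.1.S1_a_at. The share of all tested probe sets that switched sign in this way was not counted. The difference between the temperatures was -0.41 on Os.8608.1.S1_a_at and -0.32 on Os.8608.1.S1_at, and it did not pass the test (adjusted p 1.00 for both).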

How the results depend on the processing

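The calls in indica depended on the scaling more than on other choices. Of 17 kinesin calls, 12 were kept in every alternative with normalized values that tested them and 4 (KIN7A, KIN12C, KIN14E and KIN14R) also with values as deposited, where all tested probe sets shifted by 0.85. KIN7A was not tested in the upper 40%, with a pseudocount of 1 or without either indica array at 28 °C. With values as deposited the kinesin median was 0.36 for the indica change and 0.43 for indica minus japonica, and the values of some members turned positive. In indica these were KIN5A 0.81, KIN7C 0.0091, KIN7F 0.77, KIN7K 0.61, KIN7L 0.82, KIN8B 0.82, KIN10B 0.27, KIN14A 0.37, KIN14C 0.35, KIN14F 0.82, KIN14H 0.22, KIN14I 0.63, KIN14L 0.28, KIN14M 0.29 and KIN14O 0.72. For indica minus japonica they were KIN5A 0.84, KIN7F 0.62, KIN7K 0.63, KIN7L 0.75, KIN8B 0.76, KIN10A 0.068, KIN13A 0.93, KIN14F 0.68, KIN14I 0.64, KIN14M 0.075 and KIN14O 0.71. Most of these positive values passed in limma as higher. In indica they included KIN14C (adjusted p 0.0399), which was called lower after normalization. Those that did not pass were KIN7C, KIN10B, KIN14A, KIN14H, KIN14L and KIN14M in indica, and KIN10A and KIN14M for indica minus japonica. Median centring gave a kinesin median of -0.63 for indica minus japonica. Counts called over all probe sets in indica were 27821 without a filter, 8998 in the upper 40%, 28529 as deposited and 10076 in a fit of the 4 indica arrays, against 15778. For indica minus japonica they were 14983, 3687 and 24726 without a filter, in the upper 40% and as deposited, against 7794. For tms5 against wild type at 28 °C, 3 were called with array sets as the block and 135 in a fit of the 4 arrays of the comparison, against 0, and none was a kinesin. Leaving out 1 array gave, for tms5 against wild type at 28 °C, 0 calls and a kinesin median of -0.21 to 0.27; at 23 °C, 0 to 33 calls and 0.051 to 0.36; and for their difference, 0 calls and -0.43 to 0.079. It gave 9961 to 13213 calls, 14 to 17 kinesins and a median of -0.57 to -0.33 in indica, 0 calls and -0.10 to 0.06 in japonica, and 0 to 8960 calls, 0 to 12 kinesins and -0.60 to -0.32 for indica minus japonica. Removing the background block (no replicate block) left 0 calls for tms5 at either temperature and for their difference. The labels give no replicate numbers, so pairing was by background for tms5 and by line for temperature. With 2 arrays a group, only large changes relative to the spread could be called.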
